A study of Homo sapiens with 12 samples.

Results

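Cytosolic aminoacyl-tRNA synthetases were followed in RKO cells, an established human colon cancer line of the wild-type genotype per the labels, under low and full arginine. The members are 10 listed genes, each given by 1 or more Ensembl transcript identifiers. Of these, 8 were found in the deposited tables, each under 1 transcript, among 19686 transcripts of the RNA table and 19849 of the footprint table: RARS1 (ENST00000231572), WARS1 (ENST00000355338, 1 of 3 identifiers listed), GARS1 (ENST00000389266), AARS1 (ENST00000261772), MARS1 (ENST00000262027), NARS1 (ENST00000256854), EPRS1 (ENST00000366923) and YARS1 (ENST00000373477). The listed transcripts of the serine and threonine enzymes, SARS1 and TARS1, are not analysed here. Starved cells were held for 24 hours in arginine-free DMEM with dialyzed serum and 12.5 uM arginine, and fed cells in the same medium with 400 uM arginine. RNA-seq libraries, which measure transcript levels, and ribosome profiling libraries, which count the fragments of mRNA protected by ribosomes (footprints), were made from both, with 3 libraries per group and 12 in all. The labels number the libraries but name no separate cultures, so each p-value measures the spread between libraries, which may be technical. In the edgeR fits that spread is partly shared over all transcripts, so SE and p do not rest on a gene's own libraries alone.

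An aminoacyl-tRNA synthetase joins an amino acid to the tRNAs that read its codons, and so supplies the ribosome with charged tRNA. When an amino acid runs short, uncharged tRNA accumulates and activates the kinase GCN2, which phosphorylates the initiation factor eIF2; general initiation falls, while translation of the transcription factor ATF4 rises. ATF4 binds C/EBP-ATF response elements, and many cytosolic synthetase genes are known among its targets. RARS1 charges arginine, the amino acid withdrawn here, and is held with the methionine enzyme MARS1 and the bifunctional glutamate and proline enzyme EPRS1 in the multi-synthetase complex. The tryptophan (WARS1), glycine (GARS1), alanine (AARS1), asparagine (NARS1) and tyrosine (YARS1) enzymes work outside that complex.

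RNA libraries held 4670881 to 7967215 counts each, and footprint libraries 2063952 to 4364383. The 8 transcripts had 466 to 4077 counts per RNA library and 231 to 1962 per footprint library, so that counting error alone was at most 4.63% and 6.58% of a count. All 8 passed the filter on low counts in both assays. Levels are given as CPM, counts scaled to the library total. They are compared between conditions and not between genes, because transcript lengths were not used here. The deposited tables carry no gene names, so markers of the cell line could not be checked, and the other synthetases and the targets of ATF4 were not analysed.

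RNA of all 8 synthetases was higher in starved cells. The smallest change was that of RARS1, 1.43-fold, and the other 7 lay between 2.13-fold for EPRS1 and 3.42-fold for MARS1. In the quasi-likelihood F test of edgeR, with p adjusted by Benjamini and Hochberg's method over all 11572 transcripts tested, adjusted p lay between 3.47e-32 for MARS1 and 2.03e-09 for RARS1. In the same comparison 33.8% of all transcripts were called higher (adjusted p under 0.05), and 6.78% were called higher by more than 2-fold, as 7 of the 8 members were. The median log2 fold change, starved over fed, was 1.49 over the members and −0.012 over all transcripts tested. Starved and fed libraries did not overlap for any of the 8; the starved libraries lay above all fed libraries for 28.6% of all transcripts. In bulk libraries, a higher level in every cell and a larger share of cells with the transcript cannot be told apart.

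RARS1 RNA stood at 159, 176 and 179 CPM in starved libraries 1 to 3, against 128, 128 and 132 CPM in fed libraries 1 to 3 (log2 fold change 0.52, SE 0.07, 95% interval 0.38 to 0.66). The lowest starved library was thus above the highest fed one by a smaller margin than for any other member. Its interval lay below those of the other 7, and 19.8% of all transcripts tested had a larger log2 fold change.

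In the multi-synthetase complex, MARS1, which charges both the initiator and the elongator methionine tRNA, had 322, 318 and 324 CPM in starved libraries 1 to 3, against 107, 102 and 96.4 CPM in fed libraries 1 to 3 (log2 fold change 1.77, SE 0.07). Its 3 starved values were nearly equal, and 1.66% of transcripts had a larger log2 fold change. EPRS1, whose single chain holds the glutamate and the proline enzyme, had 507, 635 and 596 CPM in starved libraries 1 to 3, against 276, 297 and 309 CPM in fed libraries 1 to 3 (log2 fold change 1.09, SE 0.07). Its interval of 0.94 to 1.24 lay above that of RARS1 and below that of MARS1 (1.63 to 1.92), so the intervals of RARS1, EPRS1 and MARS1 did not overlap.

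Among the enzymes outside the complex, YARS1 had 434, 459.9 and 436 CPM in starved libraries 1 to 3, against 142, 149.7 and 134 CPM in fed libraries 1 to 3 (log2 fold change 1.76, SE 0.07). WARS1, which is known also as an interferon-induced gene, had 306, 337 and 335 CPM in starved libraries 1 to 3, against 111, 99.8 and 109 CPM in fed libraries 1 to 3 (log2 fold change 1.72, SE 0.07). GARS1, a single gene that encodes both the cytosolic and the mitochondrial glycine enzyme, had 557, 598 and 559 CPM in starved libraries 1 to 3, against 189.7, 198 and 209 CPM in fed libraries 1 to 3 (log2 fold change 1.64, SE 0.07). The 95% intervals of YARS1, WARS1 and GARS1 overlapped with one another and with that of MARS1. AARS1, which also hydrolyses tRNA mischarged with serine, had 224, 307 and 253 CPM in starved libraries 1 to 3, against 110.5, 112 and 113 CPM in fed libraries 1 to 3 (log2 fold change 1.33, SE 0.08). NARS1, whose substrate asparagine is made by the ATF4 target ASNS, had 400.5, 489 and 471 CPM in starved libraries 1 to 3, against 208, 226 and 221 CPM in fed libraries 1 to 3 (log2 fold change 1.17, SE 0.07). In AARS1 and NARS1 the first starved library was the lowest of the 3, but still far above every fed library. By catalytic class, the class I enzymes ranged from 0.52 (RARS1) to 1.77 (MARS1) on the log2 scale, with a median of 1.74. The class II enzymes ranged from 1.17 (NARS1) to 1.64 (GARS1), with a median of 1.33. Apart from RARS1, the class I enzymes WARS1, YARS1 and MARS1 had larger estimates than every class II enzyme, though their intervals overlapped with that of GARS1. EPRS1 holds both classes and is in neither group.

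**Figure D1:**
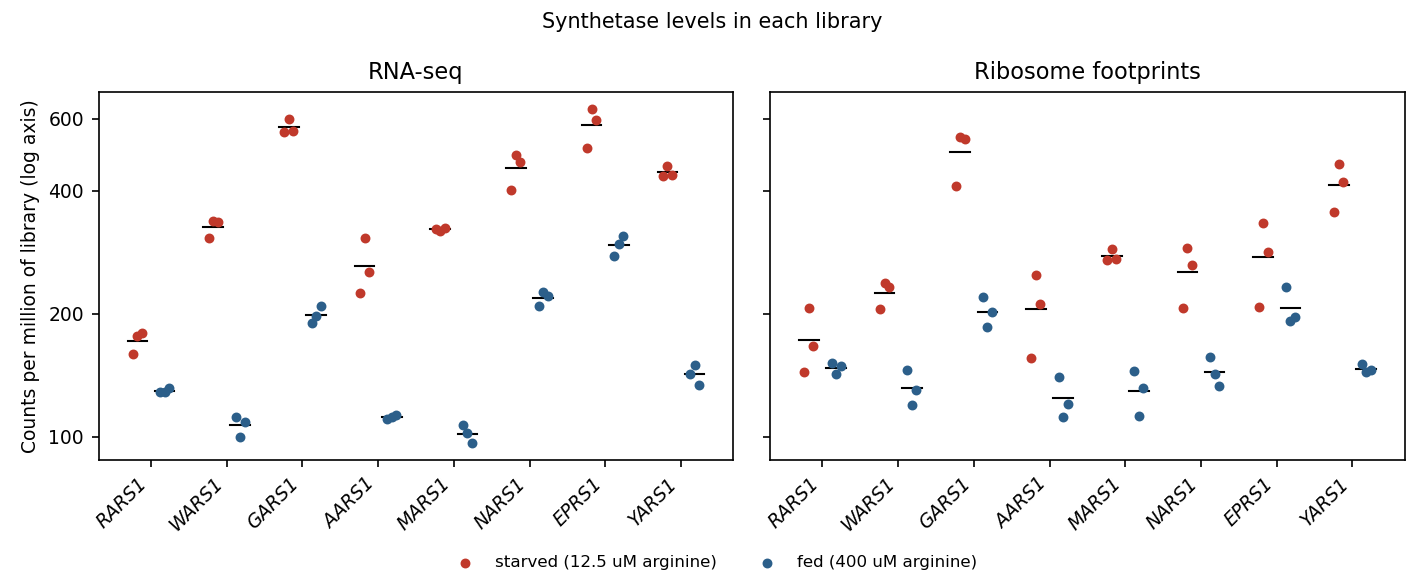
CPM of each synthetase on a log axis in every RNA library (left) and footprint library (right), starved (red) left of fed (blue); points are libraries and lines are means of 3. In RNA all starved points lie above the fed points of the same gene, whereas in footprints the groups of RARS1 and EPRS1 overlap.

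Promoter windows were read for the members that rose together, from 250 bases before to 50 bases after the annotated gene start (RefSeq, GRCh38.p14). Windows were matched by symbol for 7 of the 8 genes, with 2 starts each for WARS1 and GARS1 and thus 9 windows; YARS1 was not matched. The core of the C/EBP-ATF response element, searched as TGATGNAA on both strands, was found in the windows of 4 genes, MARS1, AARS1, NARS1 and the second start of GARS1. It was held by 3.62% of all 35116 RefSeq windows, and by at least 1 window of 4.46% of 27305 genes. The windows of RARS1, EPRS1 and WARS1 held no match, which says only that these letters are not in these windows. The cAMP response element TGACGTCA (1.85% of all windows) and the E-box CACGTG (7.26%) were in none of the 9. No searched motif overlapped another in these windows. The 4 windows with a match and that of RARS1, the member with the smallest change, are given 5′ to 3′ on the gene's strand, with the match in capitals.
MARS1 (chr12:57487818-57488117, plus strand): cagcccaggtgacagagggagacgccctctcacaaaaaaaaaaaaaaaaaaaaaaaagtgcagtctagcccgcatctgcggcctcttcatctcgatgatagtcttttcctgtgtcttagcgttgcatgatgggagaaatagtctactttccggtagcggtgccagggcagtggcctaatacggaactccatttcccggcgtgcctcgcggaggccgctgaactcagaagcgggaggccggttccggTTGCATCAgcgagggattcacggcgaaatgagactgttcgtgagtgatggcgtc
AARS1 (chr16:70289457-70289756, minus strand): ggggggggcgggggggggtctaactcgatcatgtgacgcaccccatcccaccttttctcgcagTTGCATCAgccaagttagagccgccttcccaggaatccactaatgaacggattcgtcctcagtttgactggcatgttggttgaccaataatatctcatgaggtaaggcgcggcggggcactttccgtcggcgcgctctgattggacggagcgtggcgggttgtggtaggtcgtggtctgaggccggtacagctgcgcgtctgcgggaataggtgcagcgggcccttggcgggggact
NARS1 (chr18:57621787-57622086, minus strand): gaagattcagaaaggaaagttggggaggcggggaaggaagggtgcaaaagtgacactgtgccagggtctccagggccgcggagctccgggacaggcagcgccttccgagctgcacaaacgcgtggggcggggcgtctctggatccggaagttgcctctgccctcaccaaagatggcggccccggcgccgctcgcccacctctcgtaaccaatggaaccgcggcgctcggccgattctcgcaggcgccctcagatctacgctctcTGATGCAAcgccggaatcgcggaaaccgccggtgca
GARS1 (chr7:30594628-30594927, plus strand): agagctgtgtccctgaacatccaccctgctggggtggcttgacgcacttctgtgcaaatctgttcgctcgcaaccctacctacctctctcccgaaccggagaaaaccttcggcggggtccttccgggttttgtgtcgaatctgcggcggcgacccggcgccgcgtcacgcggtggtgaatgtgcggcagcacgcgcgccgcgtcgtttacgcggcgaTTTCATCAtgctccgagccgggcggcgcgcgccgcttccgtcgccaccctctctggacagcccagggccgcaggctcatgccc
RARS1 (chr5:168486221-168486520, plus strand): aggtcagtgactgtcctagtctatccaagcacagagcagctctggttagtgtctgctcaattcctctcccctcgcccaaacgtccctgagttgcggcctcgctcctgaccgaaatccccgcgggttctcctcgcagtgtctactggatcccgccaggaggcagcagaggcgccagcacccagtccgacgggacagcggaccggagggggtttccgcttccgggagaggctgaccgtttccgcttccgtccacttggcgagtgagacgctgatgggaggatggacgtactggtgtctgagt

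The match lay across the gene start in MARS1, from position −4 to 4, and upstream in AARS1, from −187 to −180, counted from 1 at the annotated start with no position 0. It lay downstream of the start in NARS1, from 15 to 22, and upstream in GARS1, from −33 to −26. On the gene's strand MARS1 and AARS1 hold TTGCATCA, whose reverse complement TGATGCAA is found in NARS1, and GARS1 holds TTTCATCA. Genes with a match (log2 fold change in RNA 1.17 to 1.77) and genes without (0.52 to 1.72) overlapped in their change.

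**Figure D2:**
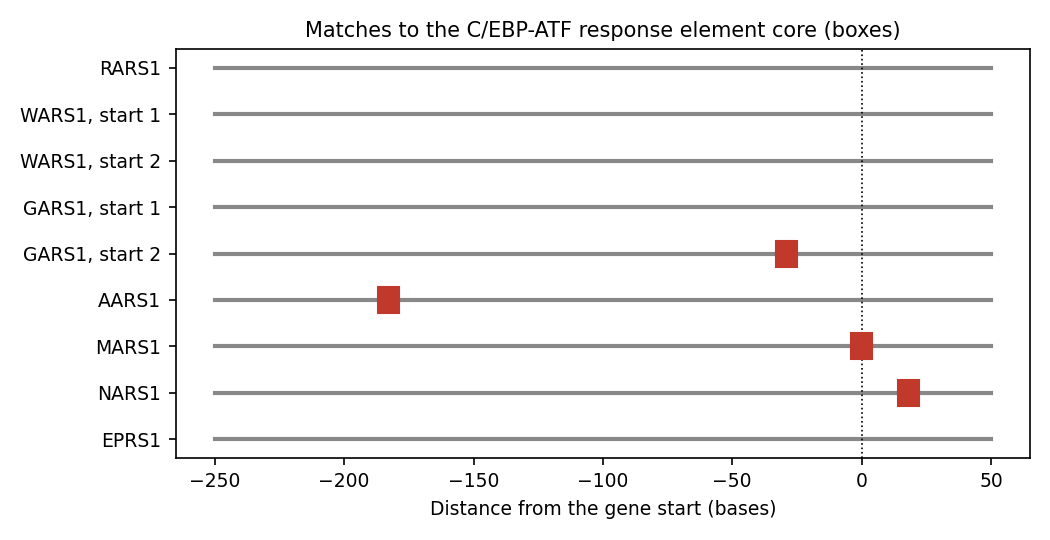
Windows of 7 synthetase genes, drawn by distance from the gene start in bases (dotted line), with boxes at matches to the response element core. A match is present in 4 of the 9 windows, upstream of the start in AARS1 and GARS1 (second start), across it in MARS1 and downstream of it in NARS1.

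Footprints rose on 6 of the 8 synthetases, by 1.60-fold (AARS1) to 2.72-fold (YARS1), and did not pass the test on RARS1 and EPRS1. Among all 13457 transcripts tested for footprints, 18.9% were called higher and 6.49% were called higher by more than 2-fold, as YARS1, GARS1 and MARS1 were. The median log2 fold change was 0.75 over the members and 0.053 over all transcripts. Libraries of the 2 groups did not overlap for the 6 called members, against 26.6% of all transcripts whose starved libraries were all higher. Both assays called 6 of the 8 members higher, against 13.7% of the 11027 transcripts tested in both. Adjusted p of the 6 in footprints lay between 4.91e-06 and 0.00704 (edgeR, adjusted over all transcripts).

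RARS1 footprints numbered 144, 207 and 167 CPM in starved libraries 1 to 3, against 151, 142 and 149 CPM in fed libraries 1 to 3. Starved library 1 lay within the range of the fed libraries, and the other two lay above it. RARS1 footprints did not pass the edgeR test (adjusted p = 0.34): their log2 fold change was 0.18 with an SE of 0.14 and a 95% interval of −0.13 to 0.49, so that no change and a rise within that interval could not be told apart at this spread. EPRS1 gave 207, 334 and 283 CPM in starved libraries 1 to 3, against 232, 191 and 196 CPM in fed libraries 1 to 3, again with starved library 1 inside the fed range. Its change of 0.36 (SE 0.16) had an edgeR adjusted p of 0.0963. It was 0.51 without starved library 1 (edgeR adjusted p = 0.0076) and 0.19 without starved library 2 (edgeR adjusted p = 0.374), the lowest and highest p over 13 alternatives. For RARS1 the change was 0.27 without starved library 1 and 0.019 without starved library 2. None of the 13 alternatives brought a call for RARS1, with edgeR adjusted p from 0.0524 to 0.926.

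Outside these, YARS1 carried 354, 464 and 419 CPM in starved libraries 1 to 3, against 151, 144 and 145 CPM in fed libraries 1 to 3 (log2 fold change 1.44, SE 0.13). The groups lay farther apart than for any other member, and 2.07% of all transcripts had a larger log2 fold change. GARS1 carried 411, 540.0 and 536 CPM in starved libraries 1 to 3, against 219, 185 and 202 CPM in fed libraries 1 to 3 (log2 fold change 1.25, SE 0.13), and MARS1 271, 289 and 273 CPM in starved libraries 1 to 3, against 144, 112 and 131 CPM in fed libraries 1 to 3 (log2 fold change 1.05, SE 0.12). These 3 members changed by more than 2-fold. NARS1 had 207, 290.0 and 262 CPM in starved libraries 1 to 3, against 156, 142 and 133 CPM in fed libraries 1 to 3 (log2 fold change 0.77, SE 0.14). WARS1 had 206, 237 and 232 CPM in starved libraries 1 to 3, against 146, 119 and 129.8 CPM in fed libraries 1 to 3 (log2 fold change 0.72, SE 0.12). AARS1 had 155, 248 and 212 CPM in starved libraries 1 to 3, against 140.2, 112 and 120.4 CPM in fed libraries 1 to 3 (log2 fold change 0.67, SE 0.17). In AARS1 the lowest starved and the highest fed library were closest, and WARS1, near the top of the members in RNA, was among the lower ones here.

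**Figure D3:**
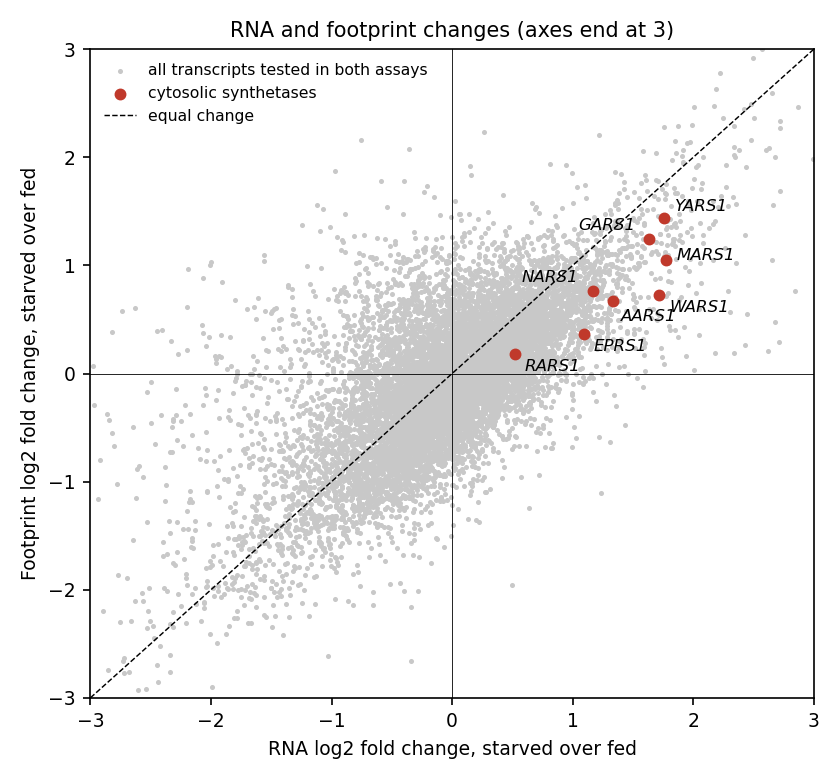
Footprint against RNA log2 fold change, starved over fed, for transcripts tested in both assays (grey) and the 8 synthetases (red), with the line of equal change dashed; 73 of 11027 transcripts lie outside the axes. All 8 synthetases lie right of 0 and below the dashed line, WARS1 farther below it than the others.

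Translational efficiency (footprints relative to RNA) was called lower on 4 of the 8 synthetases, WARS1, EPRS1, MARS1 and AARS1, and higher on none. The test was that of the assay-by-treatment interaction over all 12 libraries. There, 11.8% of 11027 transcripts were called lower and 11.1% higher, a split that turned with the scaling: 1227 were higher and 1296 lower with TMM factors, 1472 and 870 with library totals alone, and 1005 and 1740 with TMM factors from the transcripts kept in each assay alone. Among transcripts with RNA called higher by more than 2-fold, 30.3% had efficiency called lower; the RNA libraries enter both of these values. The median change of efficiency was −0.45 over the members and −0.023 over all transcripts, and all 8 estimates were below 0.

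WARS1 had the largest difference between the assays. Its footprint CPM per RNA CPM, from group means, was 0.690 ± 0.0366 in starved and 1.23 ± 0.0830 in fed cells (SE from the libraries of both assays), and the log2 efficiency fell by 0.92 (SE 0.13, edgeR adjusted p = 4.23e-05). All such ratios use library totals alone, while the efficiency fit uses TMM factors, so ratios and log2 changes do not match exactly. For EPRS1 the ratio was 0.474 ± 0.0707 in starved and 0.702 ± 0.0493 in fed cells, and the efficiency fell by 0.65 (SE 0.17, edgeR adjusted p = 0.0112). For MARS1 it was 0.863 ± 0.0182 in starved and 1.27 ± 0.0983 in fed cells, and the efficiency fell by 0.64 (SE 0.13, edgeR adjusted p = 0.00116). Of the complex members followed, EPRS1 and MARS1 thus had called decreases and RARS1 had not. MARS1 footprints rose, and those of EPRS1 did not pass. WARS1 and AARS1, also called, work outside the complex. AARS1 gave 0.785 ± 0.127 in starved and 1.11 ± 0.0754 in fed cells, and its efficiency fell by 0.58 (SE 0.18, edgeR adjusted p = 0.0253).

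The other 4 did not pass the test. Their changes were −0.32 for NARS1 (95% interval −0.63 to −0.008), −0.31 for GARS1 (−0.59 to −0.028), −0.25 for RARS1 (−0.55 to 0.042) and −0.23 for YARS1 (−0.50 to 0.037), with edgeR adjusted p between 0.106 and 0.208. In RARS1 the ratio was 1.00 ± 0.112 in starved and 1.14 ± 0.0235 in fed cells, and in YARS1 it was 0.930 ± 0.0737 in starved and 1.03 ± 0.0365 in fed cells. The members' ratios lay between 0.659 (NARS1) and 1.27 (MARS1) in fed cells. Their median there was 1.07, above the median over all transcripts of 0.878. In starved cells they lay between 0.474 (EPRS1) and 1.00 (RARS1). Their median there was 0.824, below the median over all transcripts of 0.919. Lengths were not used, so these medians do not compare the translation of the members with that of other transcripts.

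When a trend with abundance was removed from each library, 2 of the 8, WARS1 and MARS1, still had efficiency called lower. In that fit 9.15% of all transcripts were called lower. The members' median was then −0.22, and the estimate of YARS1 was 0.025. The call of AARS1 was lost in 6 of 21 alternatives, with edgeR adjusted p of 0.0701 without starved RNA library 2, 0.0553 without fed RNA library 1, 0.0568 without fed RNA library 2 and 0.0859 without fed footprint library 1. Without starved footprint library 2, RARS1 (−0.40) and NARS1 (−0.42) also passed, with edgeR adjusted p of 0.0231 and 0.039. The calls of WARS1 and MARS1 stood in all 21.

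**Figure D4:**
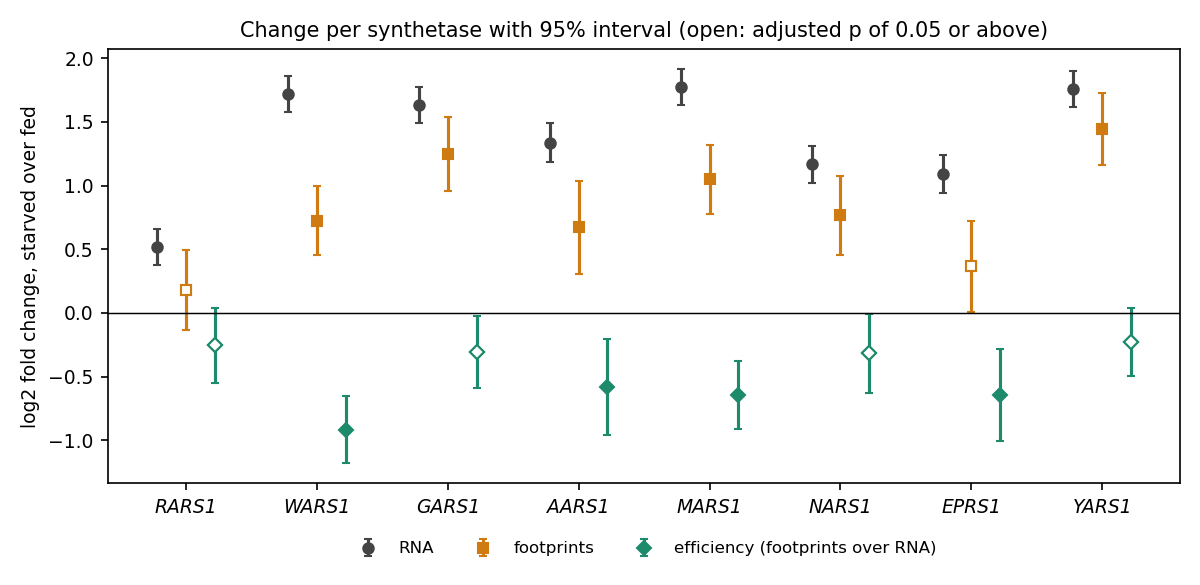
Log2 fold change, starved over fed, of RNA (circles), footprints (squares) and efficiency (diamonds) for each synthetase, with 95% intervals from the edgeR fits; open symbols did not pass an adjusted p of 0.05. RNA is above 0 for all 8, footprints are open for RARS1 and EPRS1, and efficiency is filled for WARS1, AARS1, MARS1 and EPRS1.

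RARS1 stood lower relative to the other synthetases in starved than in fed cells. The log2 CPM of RARS1 minus the median log2 CPM of the other 7 was −1.33, −1.38 and −1.28 in starved RNA libraries 1 to 3, against −0.15, −0.22 and −0.022 in fed RNA libraries. In footprints it was −0.52, −0.49 and −0.71 in starved libraries and 0.002, −0.005 and 0.17 in fed libraries. All starved values were below all fed values in both assays, and the shift of the mean was −1.20 in RNA and −0.63 in footprints. Being a difference within a library, the measure does not change with library scaling; it depends on the members chosen, so no test was made. RARS1 took 5.49 ± 0.186% in starved and 9.95 ± 0.142% in fed libraries of the RNA counts of the 8 members, and 7.43 ± 0.465% in starved and 12.002 ± 0.630% in fed libraries of their footprints (SD, n = 3 each). The share of EPRS1 was also lower in starved libraries, with 18.5 ± 0.919% in starved and 22.6 ± 0.850% in fed libraries of the members' RNA counts and 11.8 ± 1.11% in starved and 16.7 ± 0.540% in fed libraries of their footprints. YARS1 moved the other way, with 14.2 ± 0.625% in starved and 10.9 ± 0.687% in fed libraries of the members' RNA counts. Of their footprints it took 17.8 ± 0.274% in starved and 11.9 ± 0.644% in fed libraries. Mean shares were also lower in starved libraries for NARS1 and AARS1 in both assays and for WARS1 in footprints. Among these, the groups did not overlap for NARS1 in RNA (14.5% against 16.8%) and AARS1 in footprints (8.78% against 10.1%). Mean shares were higher for GARS1 and MARS1 in both assays and for WARS1 in RNA.

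**Figure D5:**
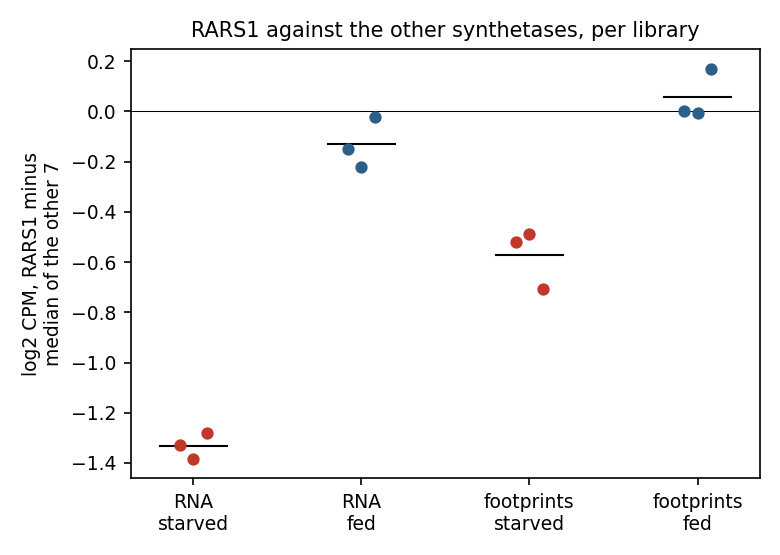
Log2 CPM of RARS1 minus the median log2 CPM of the other 7 synthetases in each library, for starved (red) and fed (blue) RNA and footprints; lines are means of 3 libraries. Starved libraries lie below fed libraries in both assays, from −1.38 to −1.28 against −0.22 to −0.022 in RNA.

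Together the 8 transcripts took 0.291%, 0.332% and 0.315% of the counts in starved RNA libraries 1 to 3, against 0.127%, 0.131% and 0.132% in fed RNA libraries, a ratio of means of 2.40. In footprints they took 0.195%, 0.261% and 0.238% in starved libraries 1 to 3, against 0.134%, 0.115% and 0.121% in fed libraries, a ratio of 1.88. Starved footprint library 1 had the lowest of the 3 starved values for all 8 members, and library 2 the highest for all 8. In RNA, starved library 1 was the lowest for 7 of the 8 and library 2 the highest for 6. Leaving out any 1 RNA library changed no RNA call of a member. Without starved footprint library 1, 7 members in place of 6 had footprints called higher, EPRS1 being added. Of all transcripts tested, 16.7% were then called higher in footprints. Without starved footprint library 2, 6 members in place of 4 had efficiency called lower, RARS1 and NARS1 being added. Of all transcripts tested, 11.8% were then called lower in efficiency.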

How the data were processed

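The deposited tables hold raw counts for each Ensembl transcript, 1 table per assay and 1 column per library, with no normalization. The submitters' processing notes name cutadapt, STAR, UMI-tools, DESeq2 and GRCh38.p13, without roles or versions. Per the labels' protocols, RNA libraries were made with a TruSeq v2 kit, which keeps no strand, so genes on opposite strands cannot be told apart; ribosomal RNA was removed with RiboCop. How reads were counted, and how isoforms and reads with several positions were treated, is not given in the sources used here.

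Tests were run in R 4.3.3 with edgeR 4.0.16 (two-sided quasi-likelihood F test, TMM factors, filterByExpr, adjusted p threshold 0.05) over all transcripts kept. Each assay had its own fit of 6 libraries. Efficiency was the assay-by-treatment interaction in a fit of 12, with TMM factors per assay on the transcripts kept in both. The SE is the log2 fold change over the root of F, and 95% intervals use the t distribution. The fits share information on spread between transcripts, which gave the members 63.6 degrees of freedom in RNA, 12.2 in footprints and 19.8 in efficiency. A member's SE is thus not a measure of its own replicate spread alone. The biological coefficient of variation was 5.75% in RNA and 13.7% in footprints. No replicates were identical (chi-square per degree of freedom at least 2.07 in 12 pairs within groups). Every sample column was used. The tests were also run on simulated counts, in which all transcripts of an assay were given the same dispersion. The outcome is not given here, so it does not show how well changes of the members' size are found.

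Every member found is named. Members, lists and motifs were chosen with earlier results of these data known. Of 19849 identifiers 0 matched the gene tables, so members carry the names listed with their identifiers; other synthetases, footprints per codon and the arginine content of the proteins were planned and not analysed here. Alternatives were DESeq2 1.42.0 (size factors, Wald test), library totals, no filter, a replicate block, limma-voom (limma 3.58.1), removal of a loess trend of log2 CPM with abundance, 1 fit of all libraries and leaving out each library; TMM factors from each assay's own transcripts were added after the data were seen.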

Additional observations from a re-analysis of the deposited data

Results flagged for a closer look

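RNA and footprints answered starvation differently on 4 synthetases, where the interaction of assay and treatment passed the test (quasi-likelihood F test of edgeR, adjusted p under 0.05). In that test 11.8% of all 11027 transcripts were called lower and 11.1% higher. Among transcripts with RNA called higher by more than 2-fold, 30.3% were called lower. The interaction estimate on the log2 scale was −0.92 for WARS1, −0.58 for AARS1, −0.64 for MARS1 and −0.65 for EPRS1. It came from the fit of 12 libraries, with TMM factors on the transcripts kept in both assays. In the separate fits of each assay, the changes were 0.72 in footprints and 1.72 in RNA for WARS1, and 0.36 and 1.09 for EPRS1. Scaling factors differed between these fits, so the interaction estimate is not exactly the difference of the changes. With the trend of abundance removed the estimates were −0.68 for WARS1, −0.40 for MARS1, −0.42 for EPRS1 (edgeR adjusted p = 0.0874) and −0.36 for AARS1 (edgeR adjusted p = 0.163). The part of abundance in these estimates was not tested further.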

How the results depend on the processing

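All 8 RNA calls stood under the 13 alternatives run for RNA, and the 6 footprint calls under the 13 run for footprints; library totals alone moved the RNA median of all transcripts to −0.12 and that of the members to 1.37. EPRS1 footprints, not called, were called in 3 alternatives: with the abundance trend removed (0.51), in 1 fit over all 12 libraries (0.43) and without starved library 1 (0.51). The 4 members with efficiency called lower were 2 with the abundance trend removed, 3 with library totals alone and between 3 and 6 when each library was left out in turn. Of all transcripts, 9.15% were called lower with the trend removed and 7.89% with library totals alone. With each library left out in turn the share was 8.68% to 11.8%. Efficiency of YARS1 changed sign to 0.025 with the trend removed; the cause was not tested. The last 200 bases of each promoter window are a smaller space by construction. They held the response element core in 2.39% of all windows, in 2.97% of 27305 genes and in 3 members. Same-numbered libraries correlated in their deviations from group means between −0.19 and 0.13. Of 12, 4 correlated best with their own number, 2 of them among the 3 pairs of starved footprint and starved RNA libraries. With 3 libraries per group this check cannot decide whether the numbers pair libraries. The labels do not say that they do, so the main fits used no pairing. With the replicate number as a block, 8 members were called higher in RNA, 6 higher in footprints and 4 lower in efficiency. In these fits RNA was called higher for 34.2% and footprints for 16% of all transcripts. Efficiency was called higher for 1136 and lower for 1175 transcripts. With treatment and replicate number together as the block, which pairs footprint and RNA libraries, efficiency was again called lower for 4 members. Of all transcripts, 11.7% were called lower there. The SE of AARS1 was 0.13 with this block (edgeR adjusted p = 0.00313), against 0.18 (0.0253) without a block. Replicate spread of footprints limits the detection of changes near that of RARS1.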
